A study of Coturnix japonica with 144 samples.

Results

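Gene expression was compared in the BnST (bed nucleus of the stria terminalis) between sensitized birds that brooded and control birds labelled as not brooding. The 2 groups were chosen from the deposited labels, which give the treatment and a class of behavioural response, and they hold 17 birds labelled R in the sensitization treatment (8 females, 9 males) and 17 birds labelled NS in the control treatment (10 females, 7 males). These 34 BnST libraries are part of 144 libraries in the series, in which each adult Japanese quail (Coturnix japonica) gave 1 library from the BnST, 1 from the hypothalamus and 1 from the nucleus taeniae (Tn). All birds were adults housed under short days. Birds of the sensitization treatment were shut in a wooden box overnight with a pair of chicks, control birds were shut in the same kind of box without chicks, and in the morning every bird met unfamiliar chicks before its brain was frozen, so that control birds had also seen chicks. No key to these classes is given. R and NS were read here as a sensitized responder and a control bird without spontaneous brooding, NR (6 birds) as a sensitized bird that did not respond and S (5 birds) as a control bird that brooded. The study counts more brooding control birds than carry the label S, so that some birds labelled NS may have brooded.

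The BnST is a subpallial region of the extended amygdala that sends projections to the hypothalamus and takes part in social and parental behaviour in birds and mammals. Most of the named genes described here are immediate early genes, which neurons transcribe within minutes of stimulation and without making new protein first. Their products are mainly transcription factors, such as the FOS and JUN subunits of the AP-1 complex and the zinc finger proteins of the EGR family, together with a smaller set of proteins that limit signalling or messenger RNA stability. Their RNA is short lived, so that its level reflects activity in the preceding minutes to hours.

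Punches of tissue were taken from frozen brain sections, and reads per gene were counted in each library. Total counts ranged from 10047668 to 15504356 per library in responders (median 13117447) and from 10323316 to 14274993 in NS controls (median 11714859). Expression is given as CPM, the count of a gene scaled to a common library size by TMM normalization, and a log2 fold change is that of responders over NS controls. The table names genes by Ensembl identifier, and 21 identifiers could be paired with a name or description. None of 97 genes listed as markers of neurons, glia, vessels, blood and meninges was among them, so that the tissue could not be checked against defining markers. Each of the 34 libraries correlated more closely with the median BnST profile than with the median of the hypothalamus or the Tn. Bird 25, a responder, was nearly tied, at 0.9821 for the BnST and 0.9820 for the hypothalamus. The BnST median was taken over all BnST libraries of the series except that of bird 49. It thus includes the other libraries compared here, which favours the BnST. Bird 49, a responder, stood apart, with a correlation to the median BnST profile of 0.943 against 0.979 to 0.988 in the other 33 libraries, and with 29.9% of its counts in its 50 most counted genes against 19.01 to 26.8%. Bird 17, a responder labelled male, had a mean log2 CPM over 50 male-biased genes of 5.36, within the range of the 18 females (5.28 to 5.38) and below the other 15 males (6.14 to 6.30). Of the responders 9 carry bird numbers 1 to 20 and 8 carry 21 to 50, while of the NS controls 3 carry 1 to 20 and 14 carry 21 to 50. With class in the model, 102 of 14334 genes differed between these 2 series of numbers. The labels do not say what the numbering stands for.

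Of 14334 genes tested in the BnST, 2 differed between responders and NS controls at an adjusted p under 0.05 (quasi-likelihood test in edgeR, Benjamini-Hochberg adjusted over all genes tested). Both were lower in responders, 0.014% of the genes tested, and no gene was higher. They were KLF2, a zinc finger transcription factor, and FOS, the AP-1 subunit most used as a mark of recent neuronal activity. At an unadjusted p under 0.05, 243 genes were lower (1.7%) and 370 were higher (2.58%) in responders. These counts moved with the covariates over the same 14334 genes, from 613 in all (4.28%) without covariates. With the number series they were 781 lower and 1060 higher (1841 in all). With sex and number series they were 931 lower and 1148 higher (2079 in all). With 2 surrogate variables they were 557 lower and 412 higher (969 in all), so that the lower genes were in the majority. The surrogate variables were estimated from these same counts with class in the model. Genes that pass with them are therefore no separate evidence. The median log2 fold change over all genes was 0.00113. In bulk tissue, fewer cells of a type and less RNA per cell cannot be told apart.

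**Figure D1:**
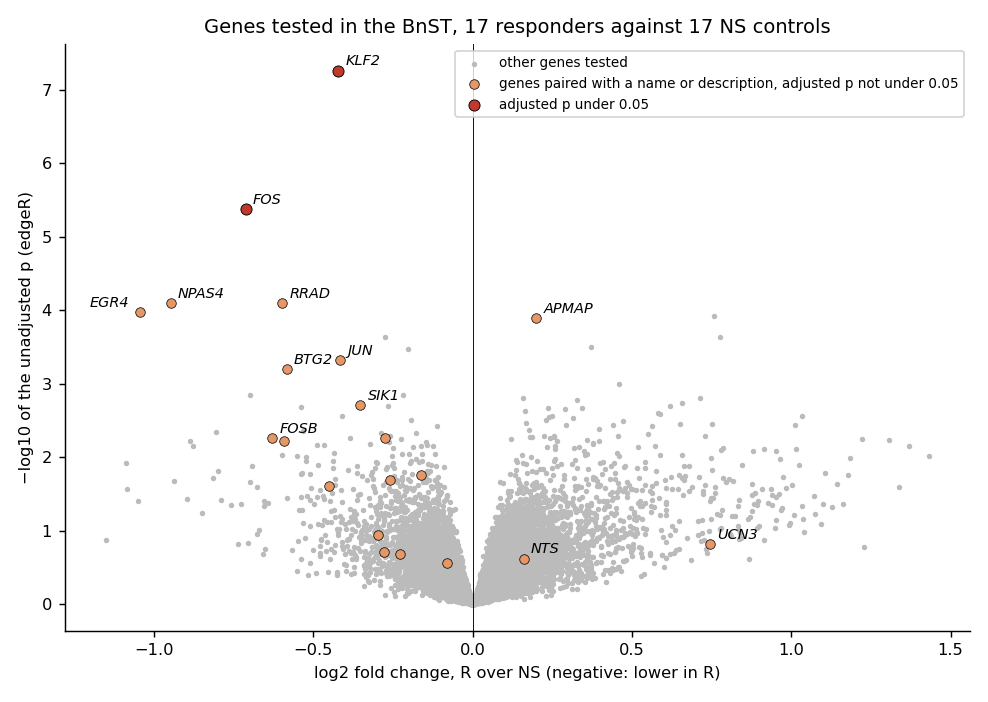
Each point is 1 of 14334 genes tested in the BnST, with the log2 fold change of 17 responders over 17 NS controls on the horizontal axis and the −log10 of the unadjusted p on the vertical axis. KLF2 and FOS, both left of 0, have an adjusted p under 0.05, and RRAD, NPAS4, EGR4, ENSCJPG00005016889 and APMAP follow at an adjusted p of 0.262.

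KLF2 (ENSCJPG00005015176) had the smallest p of all genes tested. It ranged from 21.4 to 33.6 CPM in responders (median 28.6, n = 17) and from 30.6 to 50.1 CPM in NS controls (median 37.4, n = 17). All 17 responders lay below the NS median, which was so for 5 of the 14334 genes (0.0349%). Of the NS controls 15 lay above the highest responder, and 12 responders lay below the lowest NS control, so that the groups overlapped in a narrow band. The mean was 28.9 ± 3.26 CPM (SD) in responders and 38.8 ± 5.09 CPM in NS controls. The log2 fold change was −0.42 (SE 0.06), with an adjusted p of 0.000782 from edgeR. Across the 12 alternatives that kept both sexes and both number series, the adjusted p of edgeR, limma-voom or DESeq2 was between 7.37e-07 and 0.00666. Without the library of bird 49 the mean of the remaining 16 responders was 28.98 ± 3.35 CPM and the adjusted p from edgeR was 0.00124.

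FOS (ENSCJPG00005019250) ranged from 85.1 to 217 CPM in responders (median 120.4) and from 136 to 413 CPM in NS controls (median 203). Of the responders 16 lay below the NS median and 10 lay below the lowest NS control, whereas 6 NS controls lay above the highest responder. The mean was 133 ± 35.5 CPM in responders and 219 ± 69.2 CPM in NS controls (SD, n = 17 each). The log2 fold change was −0.71 (SE 0.13), with an adjusted p of 0.0299 from edgeR. This call was less stable than that of KLF2. The adjusted p from edgeR was 0.0562 without the library of bird 49, 0.0687 without bird 17 and 0.0507 with the number series as a covariate. The log2 fold change stayed between −0.75 and −0.66 over the 12 alternatives with both sexes and both series. The adjusted p was under 0.05 in 8 of these 12. From edgeR it was lowest with 2 surrogate variables (1.94e-06) and highest with sex and number series (0.0706). When each of the 34 libraries was left out in turn, the adjusted p of FOS from edgeR lay between 0.00487 and 0.0736 and was over 0.05 without any 1 of 11 responders (birds 5, 6, 7, 14, 17, 25, 27, 43, 46, 48 and 49) or 5 NS controls (birds 9, 10, 24, 30 and 40). KLF2 was called in all 34 of these fits, with an adjusted p from edgeR of 0.000233 to 0.00211.

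**Figure D2:**
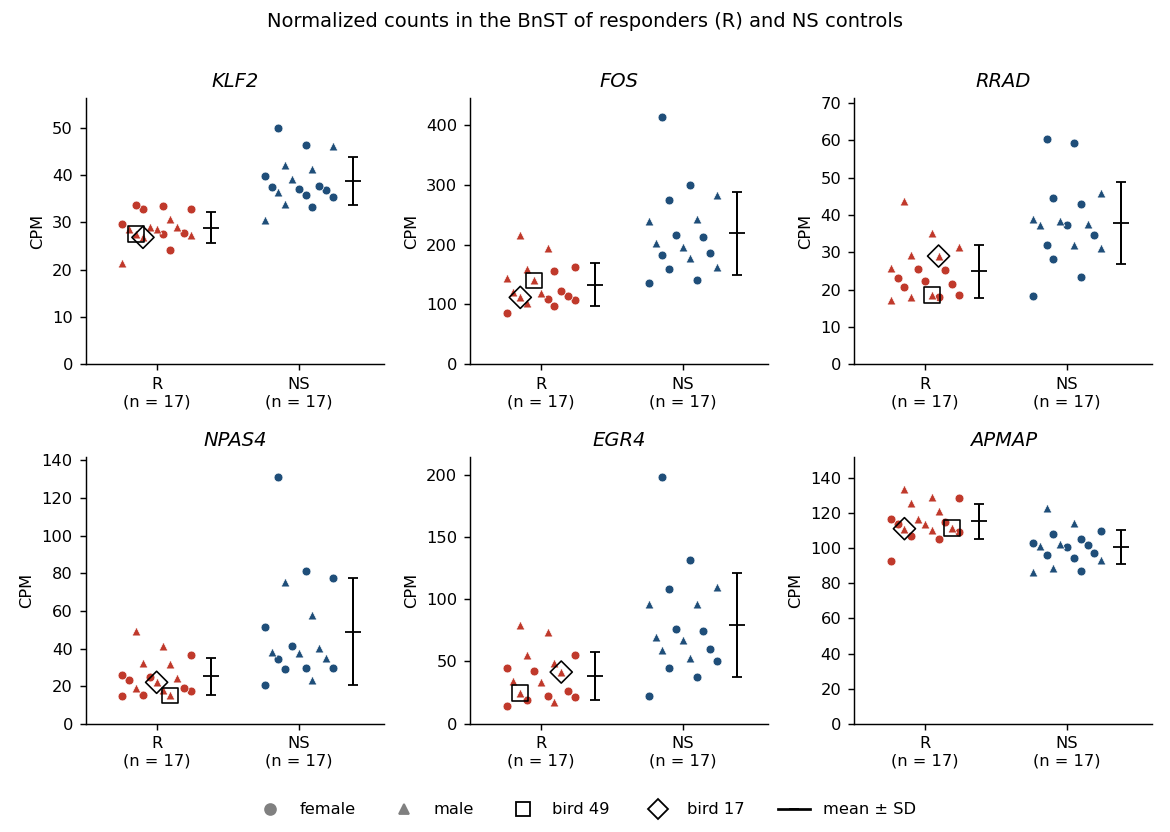
Each point is 1 bird, with its normalized count (CPM) in the BnST on the vertical axis, 17 responders (R) on the left and 17 NS controls on the right of each panel, and black bars give the mean ± SD. KLF2 of all 17 responders lies below the NS median of 37.4 CPM, whereas RRAD, NPAS4 and EGR4 overlap more widely and APMAP is higher in most responders.

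The genes next in order of p included 3 that are also induced by activity. RRAD (ENSCJPG00005014637), a small GTPase of the Ras family that inhibits voltage-gated calcium channels, ranged from 17.1 to 43.8 CPM in responders (median 23.1) and from 18.2 to 60.4 CPM in NS controls (median 37.4). Only 1 responder, bird 19, lay above the NS median. RRAD had a log2 fold change of −0.60 (SE 0.13), with an adjusted p of 0.262 from edgeR. NPAS4 (ENSCJPG00005001854), a transcription factor that is largely restricted to neurons and is induced by calcium entry, ranged from 14.9 to 49.3 CPM in responders (median 23.1) and from 20.5 to 131 CPM in NS controls (median 37.9). Its log2 fold change was −0.95 (SE 0.21), with an adjusted p of 0.262 from edgeR. EGR4 (ENSCJPG00005007745) ranged from 14.5 to 79.1 CPM in responders (median 34.3) and from 22.2 to 198 CPM in NS controls (median 69.9). Its log2 fold change was −1.05 (SE 0.24), again with an adjusted p of 0.262 from edgeR. For NPAS4 and EGR4 15 of the 17 responders lay below the NS median, which 15 or more did in 1.15% of all genes tested, and 7 responders for NPAS4 and 4 for EGR4 lay below the lowest NS control. With DESeq2's likelihood ratio test all 3 genes passed, with adjusted p of 0.0315 for RRAD, 0.0212 for NPAS4 and 0.0494 for EGR4. With 2 surrogate variables as covariates in edgeR they passed as well (0.00247, 0.000103 and 1.94e-06), and their adjusted p reached 0.413, 0.520 and 0.413 under other alternatives with edgeR or limma-voom.

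Of 28 genes listed as immediate early transcription factors, 8 had an identifier, and all 8 were tested. In edgeR without covariates KLF2 and FOS passed the threshold, and the other 6 (NPAS4, EGR4, JUN, FOSB, EGR1 and NR4A3) did not. The median log2 fold change of the 8 was −0.53, and each was below 0. They are among the genes that the study itself picked from BnST or hypothalamus libraries of these birds, so that their direction is not independent evidence. For the BnST its text names FOS, EGR4, KLF2, NPAS4 and JUN. JUN (ENSCJPG00005012418), the partner of FOS in AP-1, ranged from 81.8 to 157 CPM in responders (median 103) and from 91.6 to 261 CPM in NS controls (median 141), with 15 responders below the NS median, a log2 fold change of −0.42 (SE 0.11) and an adjusted p of 0.568 from edgeR. FOSB (ENSCJPG00005002598), the other FOS family member with an identifier, ranged from 6.26 to 23.9 CPM in responders (median 11.7) and from 6.08 to 40.4 CPM in NS controls (median 15.4). The groups overlapped over the whole range of the responders. Its log2 fold change was −0.63 (SE 0.21), with an adjusted p of 0.970 from edgeR. With 2 surrogate variables as covariates in edgeR, JUN and FOSB passed, with adjusted p of 0.00182 and 0.0446.

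EGR1 (ENSCJPG00005020865), a zinc finger factor related to EGR4 and widely used to map activity in the songbird brain, ranged from 199.9 to 788 CPM in responders (median 344) and from 226 to 835 CPM in NS controls (median 439). NR4A3 (ENSCJPG00005007065), an orphan nuclear receptor, ranged from 12.1 to 125 CPM in responders (median 65.6) and from 32.5 to 123 CPM in NS controls (median 71.3), and its lowest value was that of bird 49. Neither gene separated the groups. Their log2 fold changes were −0.30 (SE 0.18) and −0.28 (SE 0.21), both with an adjusted p of 0.970 from edgeR. The interval of the difference ran from −0.67 to 0.07 for EGR1 and from −0.70 to 0.15 for NR4A3 (95% confidence).

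Of 30 genes listed as activity-induced regulators of signalling and RNA, 4 had an identifier and none passed the threshold in edgeR without covariates. They were RRAD, SIK1, BTG2 and TOB1, with a median log2 fold change of −0.47, and each of the 4 had an unadjusted p under 0.05, as did 4.28% of all genes tested. These 4 were picked by the study from the same birds too, RRAD, SIK1 and BTG2 in the BnST and TOB1 in the hypothalamus. BTG2 (ENSCJPG00005018956), an antiproliferative protein that recruits the enzymes that shorten the poly(A) tails of messenger RNAs, ranged from 86.9 to 229 CPM in responders (median 152) and from 113 to 417 CPM in NS controls (median 192). Here 4 responders lay below the lowest NS control and 7 NS controls above the highest responder. BTG2 had a log2 fold change of −0.58 (SE 0.16), with an adjusted p of 0.692 from edgeR. It passed with 2 surrogate variables as covariates in edgeR, with an adjusted p of 0.0267. SIK1 (ENSCJPG00005008725), a kinase that holds back transcription driven by CREB, ranged from 15.5 to 46.6 CPM in responders (median 32.8) and from 31.3 to 72.0 CPM in NS controls (median 39.5), and its lowest value was again that of bird 49. Of the responders 16 lay below the NS median. The log2 fold change of SIK1 was −0.35 (SE 0.11), and that of TOB1 (ENSCJPG00005021438), a relative of BTG2, was −0.16 (SE 0.07), both with an adjusted p of 0.970 from edgeR. TOB1 ranged from 72.9 to 117 CPM in responders and from 86.4 to 145 CPM in NS controls.

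APMAP (ENSCJPG00005004185), a membrane protein with arylesterase activity first described in fat cells, was the named gene with the smallest p among those higher in responders. It ranged from 92.9 to 133 CPM in responders (median 114) and from 86.2 to 123 CPM in NS controls (median 101). Of the responders 16 lay above the NS median and 4 lay above the highest NS control. The mean was 115 ± 10.001 CPM in responders and 101 ± 9.70 CPM in NS controls (SD, n = 17 each), and the log2 fold change was 0.20 (SE 0.05). The adjusted p from edgeR was 0.262. It was 0.0393 with DESeq2 and between 0.0393 and 0.368 over the 12 alternatives with both sexes and both series.

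Of 36 genes listed as neuropeptides and their receptors, 2 had an identifier. UCN3 (ENSCJPG00005004068), a peptide of the corticotropin-releasing factor family, varied widely, from 0.245 to 31.3 CPM in responders (median 4.09) and from 0.363 to 19.3 CPM in NS controls (median 3.71). Its log2 fold change was 0.74 (SE 0.51, interval −0.29 to 1.77). NTS (ENSCJPG00005004778), which encodes neurotensin, ranged from 34.6 to 123 CPM in responders (median 87.6) and from 54.7 to 99.0 CPM in NS controls (median 73.4). Responders spread beyond the NS controls at both ends, with 3 below the lowest and 6 above the highest NS control. Its log2 fold change was 0.16 (SE 0.13, interval −0.11 to 0.43). Both genes had an adjusted p of 0.970 from edgeR.

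The remaining genes with a name or description did not pass the threshold either, each with an adjusted p of 0.970 from edgeR. PLCD1 (ENSCJPG00005010944), a phospholipase C, ranged from 49.04 to 98.5 CPM in responders and from 58.9 to 110.3 CPM in NS controls, with a log2 fold change of −0.27 (SE 0.09). SS18L2 (ENSCJPG00005014626) ranged from 9.71 to 21.6 CPM in responders and from 11.1 to 23.1 CPM in NS controls, with a log2 fold change of −0.26 (SE 0.11). ST8SIA2 (ENSCJPG00005020407), which adds polysialic acid to the neural cell adhesion molecule, differed by −0.08 (SE 0.07, interval −0.23 to 0.07). For 3 identifiers described as lncRNAs, the log2 fold change was −0.59 (ENSCJPG00005007066, SE 0.20), −0.45 (ENSCJPG00005002600, SE 0.19) and −0.23 (ENSCJPG00005007063, SE 0.18). Of all 21 identifiers 18 were below 0 and 3 above, with a median log2 fold change of −0.35. At an unadjusted p under 0.05, 14 of them were lower and 1 was higher, beside 1.7% lower and 2.58% higher over all genes tested. The study drew these 21 from the same birds, so that their shared direction is a description of the list and not a separate line of evidence.

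Among the 20 genes with the smallest p, 11 were lower and 9 were higher in responders, and 12 of them could not be paired with a name. The log2 fold changes of these 12 lay between −0.70 and −0.20 in 4 genes and between 0.16 and 0.78 in 8. ENSCJPG00005016889 was a low-abundance transcript at 0.753 to 2.19 CPM in responders (median 1.51) and 0.338 to 1.54 CPM in NS controls (median 0.783). Of the responders 16 lay above the NS median and 8 above the highest NS control. ENSCJPG00005008516 ranged from 2.21 to 7.90 CPM in responders (median 4.50) and from 1.22 to 4.36 CPM in NS controls (median 2.996), with 9 responders above the highest NS control. ENSCJPG00005008375 was at 31.5 to 54.5 CPM in responders (median 47.2) and 42.7 to 80.5 CPM in NS controls (median 54.7), with all 17 responders below the NS median. The log2 fold changes of these 3 were 0.76 (SE 0.18), 0.78 (SE 0.19) and −0.28 (SE 0.07), with adjusted p of 0.262, 0.369 and 0.369 from edgeR. With 2 surrogate variables as covariates in edgeR, ENSCJPG00005008375 passed, with an adjusted p of 0.0252. Over all genes, 16 or more responders lay below the NS median in 47 (0.328%) and above it in 28 (0.195%), and in 0 of the 14334 genes were the 2 groups without overlap.

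The 12 activity-induced genes with an identifier (the 8 transcription factors and the 4 regulators) were also compared bird by bird. Correlation between the genes was not tested. The highest NS control was bird 38 for FOS, NPAS4 and EGR4, bird 40 for KLF2 and bird 9 for SIK1 and TOB1. When the 34 birds were ranked for each gene and the ranks averaged over the 12 genes, 8 NS controls and 2 responders were among the 10 highest birds, and 9 responders and 1 NS control were among the 10 lowest. Bird 38, an NS female, was among the 5 highest birds in 11 of the 12 genes, and bird 7, a responder female, was among the 5 lowest in 11. Exceptions to the class pattern were present in both groups. Bird 39, an NS female, was among the 5 lowest birds in 7 genes, and bird 19, a responder male, was among the 5 highest in 5. The spread between birds (SD of log2 CPM) was larger in NS controls for 9 of the 12 genes. These ranks use the same values as the tests above, and the genes were drawn from these birds, so that they describe the birds and carry no test.

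**Figure D3:**
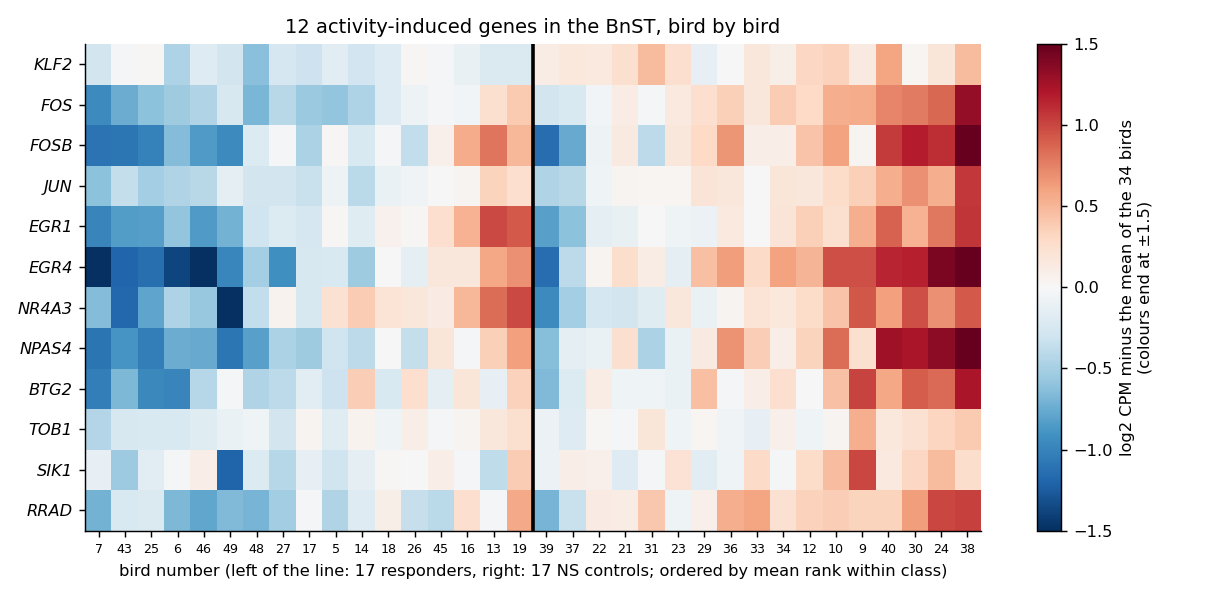
Rows are 12 activity-induced genes and columns are the 34 birds, 17 responders left of the line and 17 NS controls right of it, ordered by mean rank within class. Colour gives log2 CPM minus the mean of the 34 birds, blue for below and red for above. Bird 7 is at the low end of the responders and bird 38 at the high end of the NS controls, with bird 39 low among NS controls and bird 19 high among responders.

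The difference was then taken within each sex and each number series, since the series are unequally shared between the classes. Bird 17 was counted among the males, as labelled. KLF2 and FOS passed the threshold in these same birds and the 21 identifiers were drawn from them, so that the values in subsets are a description and no further evidence. In log2 CPM, KLF2 differed by −0.36 in females (8 against 10), by −0.47 in males (9 against 7), by −0.51 among birds 1 to 20 (9 against 3) and by −0.37 among birds 21 to 50 (8 against 14). FOS differed by −0.84 in females, −0.58 in males, −0.77 among birds 1 to 20 and −0.73 among birds 21 to 50. EGR4 differed by −1.27, −0.89, −1.11 and −1.24 in the same order, and APMAP by 0.14, 0.24, 0.20 and 0.21. Of the 21 identifiers, 18 were lower in responders among females, 19 among males, 17 among birds 1 to 20 and 18 among birds 21 to 50. The 19 in males include UCN3 (−0.23) and the lncRNA ENSCJPG00005002600 (−0.02). For this lncRNA the estimate from edgeR in males was positive. ST8SIA2 was higher in responders among birds 1 to 20 (0.12) and lower among birds 21 to 50 (−0.26). When edgeR was fitted over all genes within a sex or a series, none of the 4 subsets gave a gene past the threshold (0 genes each). An unadjusted p under 0.05 was reached by 790 of 14350 genes in females and 527 of 14382 in males. It was reached by 477 of 14914 genes among birds 1 to 20 and by 1990 of 14447 among birds 21 to 50.

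Whether the difference between responders and NS controls depended on sex was tested in 1 model over the 34 libraries. Bird 17 was counted as male, as labelled, and the interaction was not tested without it. Of 14867 genes 0 had an adjusted p under 0.05 for the interaction of class with sex in edgeR or in DESeq2, and 906 (6.09%) had an unadjusted p under 0.05 in edgeR. The male minus female difference of the log2 fold change was −0.11 for KLF2 (interval −0.36 to 0.14) and 0.33 for FOS (interval −0.20 to 0.86), and a sex difference of a size within these intervals is not excluded. Of the 21 identifiers 1, the lncRNA ENSCJPG00005002600, had an unadjusted p under 0.05 for the interaction. It was at 8.09 ± 2.69 CPM in female responders (n = 8) and 15.4 ± 6.74 CPM in NS females (n = 10), and at 11.5 ± 5.13 CPM in male responders (n = 9) and 11.03 ± 2.44 CPM in NS males (n = 7). Its interaction estimate was 0.98 (SE 0.37), with an adjusted p of 0.788 from edgeR.

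To see whether the difference went with the response to chicks or with the treatment, responders were compared with the other classes in 1 fit of 45 BnST libraries (17 R, 6 NR, 5 S and 17 NS). Against sensitized NR birds, 1 of 15182 genes had an adjusted p under 0.05 (lower in responders, 0.00659% of genes tested), and 650 (4.28%) had an unadjusted p under 0.05. That gene, ENSCJPG00005004450, had no name and few reads. It had a median of 0.369 CPM and a highest value of 0.910 CPM in responders and ranged from 0.426 to 14.7 CPM in NR birds (median 0.827), the highest value being that of bird 47, an NR male. It had a log2 fold change of −2.74 (SE 0.48, adjusted p of 0.0152 from edgeR), and without bird 47 it was −0.68 with an adjusted p of 0.868, so that the call rested on 1 bird. DESeq2 gave this gene no adjusted p and called 1 other gene, which has no name.

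The activity-induced genes did not separate responders from NR birds. Most of these genes were picked by the study for a difference between the treatments in these same birds, with NR birds among the sensitized. A likeness of NR birds to responders is thus partly built into the choice of genes. The study also picked genes for a correlation with brooding duration in the hypothalamus of these birds. That choice can favour a difference between responders and NR birds. KLF2 was at 28.9 ± 3.26 CPM in responders and 30.5 ± 4.22 CPM in NR birds (SD, n = 17 and 6), and all 6 NR birds lay below the NS median. The log2 fold change of responders over NR birds was −0.07 for KLF2 (interval −0.26 to 0.11), −0.29 for FOS (interval −0.65 to 0.08), −0.33 for EGR4 (interval −0.97 to 0.31) and −0.02 for APMAP (interval −0.16 to 0.12). None of the 12 activity-induced genes had an unadjusted p under 0.05 in this comparison, and 11 of them had an estimate below 0. With 6 NR birds the values hung on single birds. EGR4 was at −0.17 without bird 28, and KLF2 was at −0.14 without bird 20 and −0.03 without bird 42 or bird 44. Differences within the intervals above are not excluded.

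Against control birds labelled S, 0 of 15182 genes had an adjusted p under 0.05 in edgeR or in DESeq2, and 954 (6.28%) had an unadjusted p under 0.05 in edgeR. FOS was at 133 ± 35.5 CPM in responders and 121, 189, 248, 284 and 313 CPM in the 5 S birds. The lowest S bird thus lay within the responders and 3 lay above the highest responder. FOS had a log2 fold change of −0.79 (SE 0.19, interval −1.17 to −0.41), with an adjusted p of 0.684 from edgeR. KLF2 was at 27.1, 31.96, 35.2, 37.1 and 45.95 CPM in S birds, with a log2 fold change of responders over S birds of −0.29 (interval −0.49 to −0.10) and an adjusted p of 0.684 from edgeR. Without bird 2, the S bird of highest KLF2, it was −0.18 (interval −0.38 to 0.02). All 12 activity-induced genes had an estimate below 0 and an unadjusted p under 0.05 in this comparison, and none passed the adjustment over all genes. This tally did not hold without single S birds, since the unadjusted p in edgeR was 0.0821 for KLF2 without bird 2 and 0.0549 for BTG2 without bird 11. Most of the 12 genes were also picked for a difference between the treatments, with S birds among the controls. Their shared direction is therefore not independent evidence.

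The same fit gives the other classes beside NS controls. These comparisons share the 17 NS controls, so that their values are set side by side only. The log2 fold change over NS controls was −0.42 in responders, −0.35 in NR birds and −0.13 in S birds for KLF2. For FOS it was −0.71 in responders, −0.43 in NR birds and 0.08 in S birds. For EGR4 it was −1.05, −0.72 and 0.14, and for APMAP 0.20, 0.22 and 0.06, in the same order. Over the 12 activity-induced genes the median was −0.50 in responders, −0.39 in NR birds and 0.11 in S birds. Since most of these genes were picked for a difference between the treatments in the same birds, this order of classes cannot tell response from treatment.

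**Figure D4:**
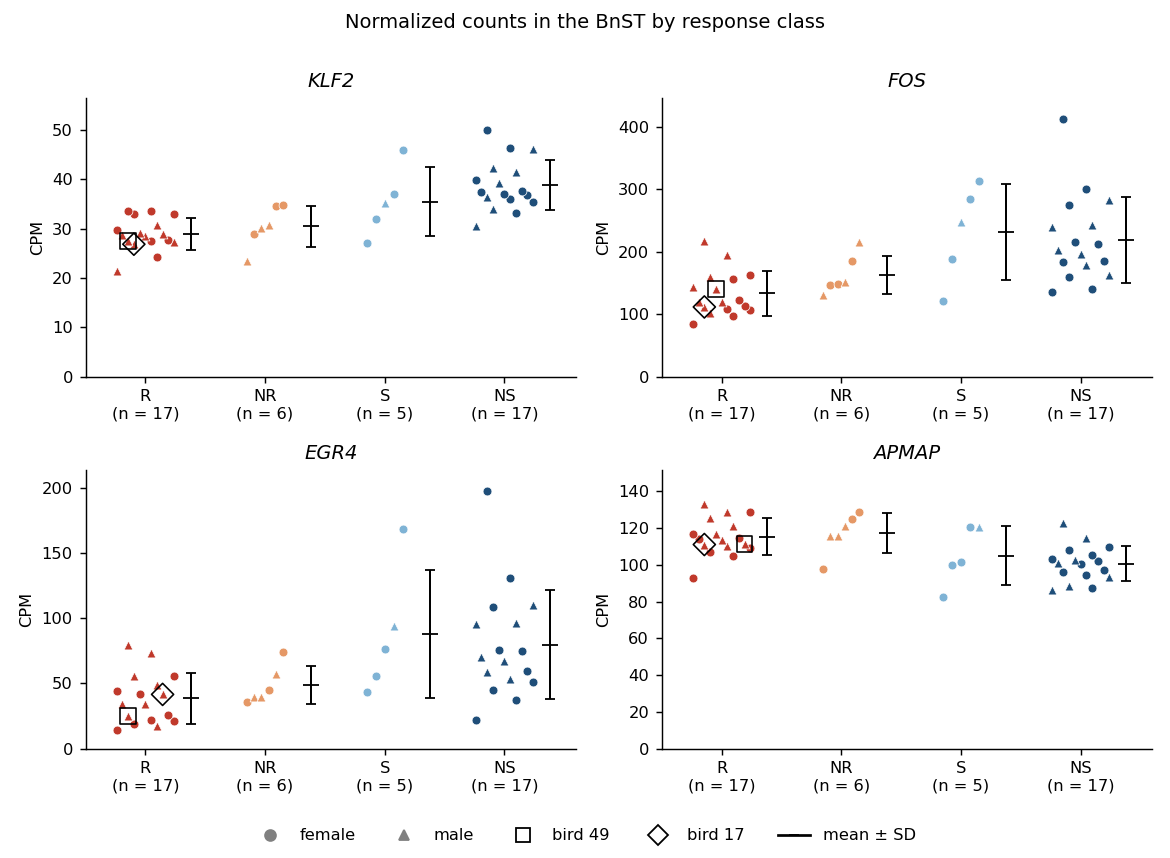
Each point is 1 bird, with its normalized count (CPM) in the BnST on the vertical axis and the 4 response classes on the horizontal axis, and black bars give the mean ± SD. For KLF2 the 6 NR birds lie between 23.4 and 34.9 CPM, all below the NS median of 37.4 CPM, and the 5 S birds lie between 27.1 and 45.95 CPM.

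The same 34 birds were compared in the hypothalamus and the Tn, to see whether the difference in the BnST was matched there. In hypothalamic libraries 11 of 14438 genes (0.0762%) passed an adjusted p of 0.05 in edgeR, of which 2 were higher (0.0139%) and 9 lower (0.0623%) in responders. All 11 were among the 21 identifiers, which the study drew in part from these hypothalamic libraries, so that this overlap is no separate evidence. FOS was at 89.2 ± 18.3 CPM in responders and 133 ± 15.7 CPM in NS controls there (SD, n = 17 each), with a log2 fold change of −0.57 (SE 0.08), and EGR4 had a log2 fold change of −1.05 (SE 0.14). KLF2 was at 35.9 ± 10.01 CPM in responders and 42.9 ± 10.3 CPM in NS controls of the hypothalamus, with a log2 fold change of −0.26 (SE 0.12) and an adjusted p of 0.843 from edgeR. UCN3 and NTS were the 2 genes higher in responders in the hypothalamus, by 0.996 (SE 0.11) and 0.51 (SE 0.10) on the log2 scale. In the Tn 0 of 14235 genes had an adjusted p under 0.05 in edgeR, with 688 (4.83%) at an unadjusted p under 0.05. There KLF2 differed by −0.21 (SE 0.12), FOS by −0.34 (SE 0.11) and APMAP by 0.20 (SE 0.05).

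The difference between regions was itself tested as an interaction of class with region. For the BnST against the hypothalamus edgeR gave 0 of 14857 genes past the threshold, with 320 (2.15%) at an unadjusted p under 0.05. Against the Tn there were 0 of 14824, with 168 (1.13%) at an unadjusted p under 0.05. The BnST minus hypothalamus difference in log2 fold change was −0.17 for KLF2 (interval −0.44 to 0.11), −0.14 for FOS (interval −0.46 to 0.17) and 0.01 for EGR4 (interval −0.54 to 0.56). For NTS it was −0.35 (interval −0.69 to −0.01, unadjusted p = 0.0423, adjusted p = 0.999 from edgeR). The BnST minus Tn difference was −0.21 for KLF2 (interval −0.47 to 0.06), −0.37 for FOS (interval −0.71 to −0.03) and 0.00209 for APMAP (interval −0.13 to 0.14). KLF2 thus passed the threshold in the BnST alone of the 3 regions, and no difference between regions passed it in edgeR. Against the Tn all 12 activity-induced genes had an estimate below 0, and 4 had an unadjusted p under 0.05 in edgeR. Against the hypothalamus 7 were below 0 and 5 above, and 0 had an unadjusted p under 0.05. The study drew these genes from BnST and hypothalamus libraries of these birds, so that the tally against the Tn is no separate evidence. The intervals and tallies above come from a fit that does not pair the libraries of a bird. Since both libraries of a pair come from the same bird, the bird was also entered as a block. As a fixed block in edgeR it left 0 genes past the threshold for either pair of regions. At an unadjusted p under 0.05 this paired fit gave 706 of 14857 genes against the hypothalamus and 330 of 14824 against the Tn. Without pairing these were 320 and 168. As a random block in limma-voom the bird gave 1 gene without a name for the hypothalamus (adjusted p of 0.0292) and 0 for the Tn.

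**Figure D5:**
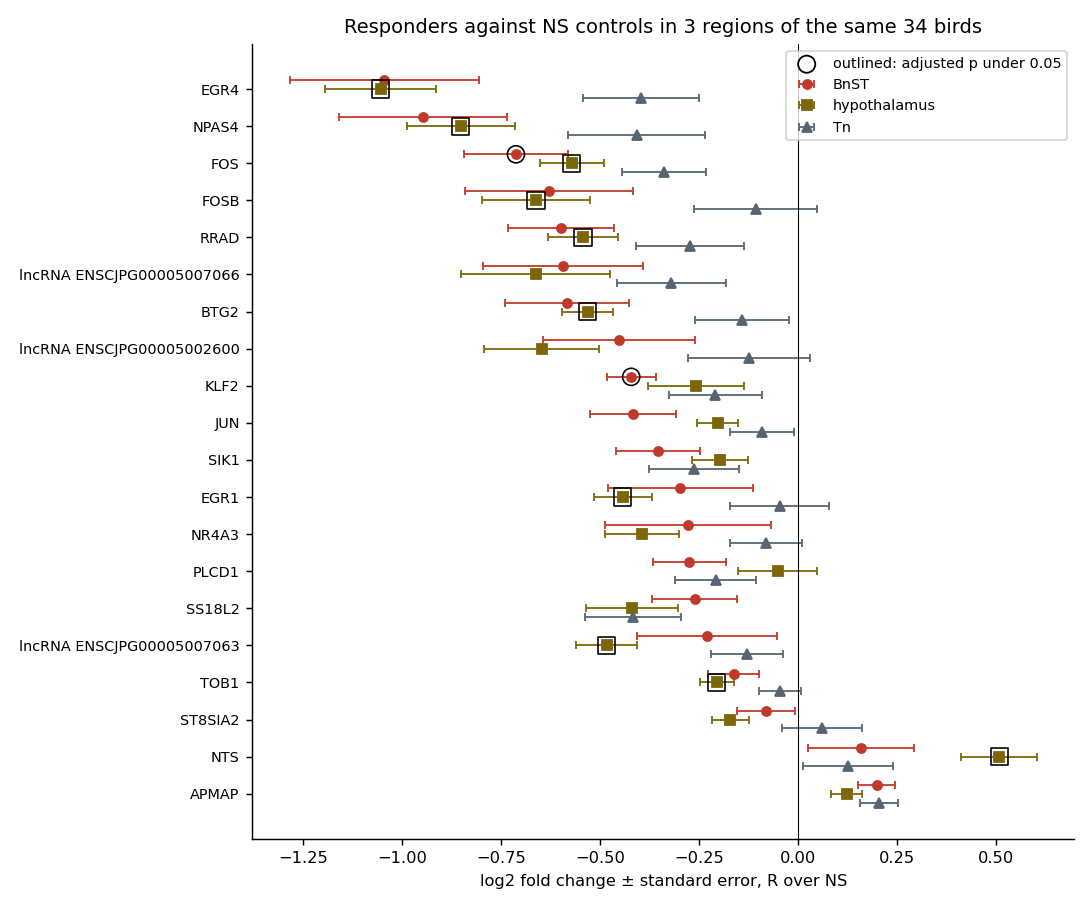
Points give the log2 fold change of 17 responders over 17 NS controls and bars its standard error, for 20 of the 21 genes with a name or description, in the BnST, the hypothalamus and the Tn of the same birds. UCN3 is left out since it was too low to be tested in the Tn. Outlined points have an adjusted p under 0.05, which in the BnST are KLF2 and FOS.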

How the data were processed

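The authors punched the regions from frozen brains, made libraries with a NEBNext RNA kit, mapped reads to the Ensembl quail genome Coturnix_japonica_2.0 with HISAT2, used HTSeq for counting and deposited the raw counts for 21561 genes, without normalization. Base calling with CASAVA 1.8.2 is named in the submitters' processing notes. Versions of the other tools and the strand setting are not given in the sources used here, so that reads of a gene and an antisense partner cannot be told apart.

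The tests ran in edgeR 4.0.16 under R 4.3.3 (TMM, filterByExpr at a count of 10 and a total of 15, robust quasi-likelihood fit and F test), with limma 3.58.1, DESeq2 1.42.0 and sva 3.50.0 for alternatives. Genes passed at a Benjamini-Hochberg adjusted p under 0.05. CPM and log2 CPM (prior count 2) used TMM factors. Within a sex or number series the mean log2 CPM of the classes was subtracted. Exact permutation tests of these differences were run, and their p-values are not given since the genes were chosen from these same birds. The scripts were tested on simulated data. The main comparison took the 34 libraries without covariates, as the study tested treatment once sex did not interact with it. Alternatives changed the test, size factors, filter, covariates (sex, number series, surrogate variables) and birds, and the bird was a block between regions. Leaving out NR and S birds was added after seeing the data.

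Named genes were those past the threshold, the 20 of smallest p, the 21 identifiers that the study's tables pair with a name or description, list members and up to 5 genes past the threshold in each other comparison. Of identifiers without a name only 4 are printed. The members and lists were chosen with earlier results of these data known. Gene lists for synaptic effectors, steroid hormone receptors and neurotransmitter synthesis had no member with an identifier. A list of 7 further genes had 4 that the study's tables pair with an identifier (ST8SIA2, APMAP, PLCD1 and SS18L2). No pair of the 34 libraries was a duplicate among 561 pairs. The labels do not say that birds were independent beyond their numbers. The p-values weigh a difference against the spread between the libraries compared and treat these as independent, save where the bird was a block. No reference of the files' build was used here, and coordinates and sequences are not given. The 3 birds without a response class were left out.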

Additional observations from a re-analysis of the deposited data

Results flagged for a closer look

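In the smaller classes of the BnST, 50 groups (25 genes in 6 NR and in 5 S birds) were searched for a bird that lay apart from the rest of its group. Such a bird was found in 6 groups (5 different birds). Chance gives about 1 in 20 for normally distributed values in independent groups, whereas these groups are CPM values of the same birds. ENSCJPG00005004450 entered the search because it was called between responders and NR birds, so that its finding in NR birds was set beforehand. In NR birds these were bird 47 for ENSCJPG00005004450 at 14.7 CPM, where the other NR birds reached 1.03 CPM, bird 42 for ENSCJPG00005008516 at 4.50 CPM and bird 28 for the lncRNA ENSCJPG00005002600 at 17.5 CPM. In S birds they were bird 1 for UCN3 at 13.4 CPM and for ENSCJPG00005004450 at 1.23 CPM, and bird 35 for RRAD at 66.1 CPM. The call of ENSCJPG00005004450 between responders and NR birds was lost without bird 47. Their causes were not tested.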

How the results depend on the processing

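Between responders and NS controls the count of 2 genes was the same with limma-voom, DESeq2 size factors, no filter, a stricter filter, sex as a covariate and all 45 libraries in 1 fit. It was 7 with DESeq2, 10 with 2 surrogate variables, 1 with the number series alone or with sex, 1 without bird 49, 1 without bird 17, and 0 in females, in males, among birds 1 to 20 and among birds 21 to 50, where fewer birds were tested. Of the 7 with DESeq2, 2 were higher in responders, APMAP and a gene without a name. The latter had an unadjusted p of 0.168 in edgeR. Of the 10 with 2 surrogate variables, 9 were lower, JUN, BTG2 and FOSB among them, and 1 was higher. With 1 of the 34 libraries left out the count was 1 to 3. Between responders and NR birds the count of 1 gene became 4 without the filter and 0 with the number series as a covariate. With DESeq2 it was 1, a different gene, and it was 0 to 5 with 1 NR bird left out, 0 being without bird 47. It stayed 0 against S birds with each of the 5 S birds left out. For the interaction of class with region, the pairing of libraries by bird as a fixed replicate block gave 0 genes for either region, and a random block in limma-voom gave 1 gene against the hypothalamus, which has no name, and 0 against the Tn. The other alternatives gave 0 genes for the interactions with sex and region. Among named genes the direction reversed for UCN3 in males (−0.19), for the lncRNA ENSCJPG00005002600 in males (0.068) and for ST8SIA2 among birds 1 to 20 (0.12), with bird 17 counted as male. KLF2 and FOS kept their direction in each alternative. The causes of these changes were not tested.

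With 17 birds a group the test has little reach for genes that vary as UCN3 does. The 6 NR and 5 S birds leave wide intervals. The labels give classes and no time spent brooding, and the classes differ in their share of the 2 number series. Names were known for 21 identifiers, so that most genes could not be placed in a pathway or cell type.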
